A study of Homo sapiens with 12 samples.

Results

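The 10 genes described here encode transcription factors of the AP-1 family or close partners of it: JUN, JUNB, JUND, FOS, FOSB, FOSL1, FOSL2, ATF3, BATF and MAFF. They were taken by symbol from the 42157 genes in a table of raw read counts, with earlier results of these data known. All 10 passed the filter on low counts, as did 13696 genes in all. RNA came from HL-60, an established human cell line from an acute myeloid leukemia (AML), so that every value describes cultures of 1 line. Cells were kept for 3 h with 0.5 µM ML-792 and 1 µM daunorubicin combined (ML-792+DNR), with 1 µM DNR (daunorubicin) alone, with 0.5 µM ML-792 alone, or with the solvent dimethyl sulfoxide (DMSO). DNR is an anthracycline given against AML that intercalates into DNA and poisons topoisomerase II. ML-792 inhibits SUMO activation, the first step in attaching the modifier SUMO to other proteins, many of them on chromatin, and the study asked how far SUMO bears on the early response of genes to DNR. Each of the 4 groups had 3 libraries of polyadenylated RNA, numbered as replicates 1 to 3, which the study's methods describe as independent experiments.

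AP-1 proteins bind DNA as pairs held together by a leucine zipper. Jun proteins pair with themselves or with Fos proteins, ATF3 and BATF pair mainly with Jun proteins, and MAFF is a small MAF protein that has a zipper but no activation domain. Several of these genes are immediate early genes, transcribed within minutes of stress or growth signals by factors already present in the cell, and their messages are short-lived. The Jun and Fos proteins are themselves targets of SUMO, ubiquitin and stress-activated kinases. In myeloid cells AP-1 is known for its part in monocyte differentiation and inflammatory genes.

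Libraries held 28647951 to 46451654 reads in genes, of which 2123 to 11581 were in the 10 AP-1 genes. Levels are given as CPM, the usual depth-scaled read count, with library sizes scaled for composition. The myeloid marker MPO, the granule peroxidase of promyelocytes, was at 10086 to 12198 CPM, the granule elastase gene ELANE only at 0.324 to 4.03 CPM, while the T cell, B cell, erythroid and epithelial markers CD3E, MS4A1, HBB and EPCAM were at 0 in every library. The replicate 1 libraries stood apart in that mitochondrially encoded transcripts took 6.37% of their reads in ML-792+DNR, 6.27% in DNR, 5.12% in ML-792 and 4.01% in DMSO, against 2.49% to 3.48% in the other 8 libraries.

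Sequences before the start site are shown for 4 genes that were higher with DNR (JUN, FOS, FOSB, MAFF) and for 2 that were not called (JUND, FOSL2), so that the elements before responding and non-responding genes can be compared. They are the last 150 bases before the first RefSeq start site of each gene (GRCh38.p14), written 5′ to 3′ on the strand of the gene: JUN chr1:58784048-58784197 (minus strand), FOS chr14:75278678-75278827 (plus strand), FOSB chr19:45467846-45467995 (plus strand), MAFF chr22:38201844-38201993 (plus strand), JUND chr19:18281623-18281772 (minus strand) and FOSL2 chr2:28392708-28392857 (plus strand). Capitals mark the CRE core TGACG on either strand (CGTCA when read on the other strand), the full CRE TGACGTCA, which contains that core, and the AP-1-like element TGACATCA known from the JUN promoter. CRE elements are bound by CREB and ATF proteins.
JUN: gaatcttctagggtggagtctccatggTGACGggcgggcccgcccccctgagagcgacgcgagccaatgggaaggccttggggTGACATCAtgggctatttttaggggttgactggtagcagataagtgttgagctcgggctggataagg
FOS: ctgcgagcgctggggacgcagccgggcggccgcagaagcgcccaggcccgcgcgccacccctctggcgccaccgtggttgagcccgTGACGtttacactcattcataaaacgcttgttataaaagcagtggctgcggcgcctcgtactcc
FOSB: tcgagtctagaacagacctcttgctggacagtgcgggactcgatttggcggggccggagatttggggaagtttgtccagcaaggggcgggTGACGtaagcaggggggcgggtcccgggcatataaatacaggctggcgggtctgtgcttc
MAFF: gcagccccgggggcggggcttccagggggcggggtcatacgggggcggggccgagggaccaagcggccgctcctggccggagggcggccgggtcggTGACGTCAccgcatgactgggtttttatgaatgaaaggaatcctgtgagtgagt
JUND: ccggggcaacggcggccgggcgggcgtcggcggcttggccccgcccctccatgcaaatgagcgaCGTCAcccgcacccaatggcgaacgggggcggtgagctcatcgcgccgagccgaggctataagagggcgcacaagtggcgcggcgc
FOSL2: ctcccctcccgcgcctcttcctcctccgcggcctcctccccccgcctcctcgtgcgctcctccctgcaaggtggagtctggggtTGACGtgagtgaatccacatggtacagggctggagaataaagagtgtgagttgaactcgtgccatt

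RefSeq windows of 250 bases before the start site were matched for 9 of the 10 genes (all but FOSL1), with 2 windows each for ATF3 and MAFF. The CRE core lay in a window of 7 of the 9 genes, against 21.2% of the 34943 windows of all genes. No window of ATF3, which rose with DNR, or of BATF, which was not called, held it, and neither gene is printed above. The core nearest to the start began 51 bases before it in MAFF, 60 in FOSB and 64 in FOS. In FOSL2 it began 66 bases before the start, in JUND 86, in JUN 123 and in JUNB, which is not printed above, 137. The core was thus in front of genes that rose and of genes that were not called. FOSL2 and JUND had further cores about 200 bases before the start. The full CRE was found for MAFF, 54 bases before the start, and for JUND, 200 bases before it, against 1.63% of all windows. TGACATCA was found for JUN, 67 bases before the start, and for ATF3, 123 bases before it, against 2.37% of all windows. The classical AP-1 letters TGACTCA or TGAGTCA were in no window of the 9 genes and in 4.22% of all windows. The AP-1 genes were counted by gene, with a match in any window, whereas the shares of all genes count single windows. A match describes the letters only.

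With DNR, 6 of the 10 AP-1 genes rose, JUN, JUNB, FOS, FOSB, ATF3 and MAFF, and none was lower. Among all 13696 genes tested, 4.07% were called higher and 2.91% lower (edgeR quasi-likelihood test; a call needed an adjusted p below 0.05 together with a 2-fold change). The median log2 fold change of the AP-1 genes was 2.03, against 0.01 over all genes. JUND, FOSL1, FOSL2 and BATF were not called. Summed over the 10 genes, the level was 322 ± 31.9 CPM in DNR and 69.2 ± 7.63 CPM in DMSO (SD, n = 3 each).

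**Figure D1:**
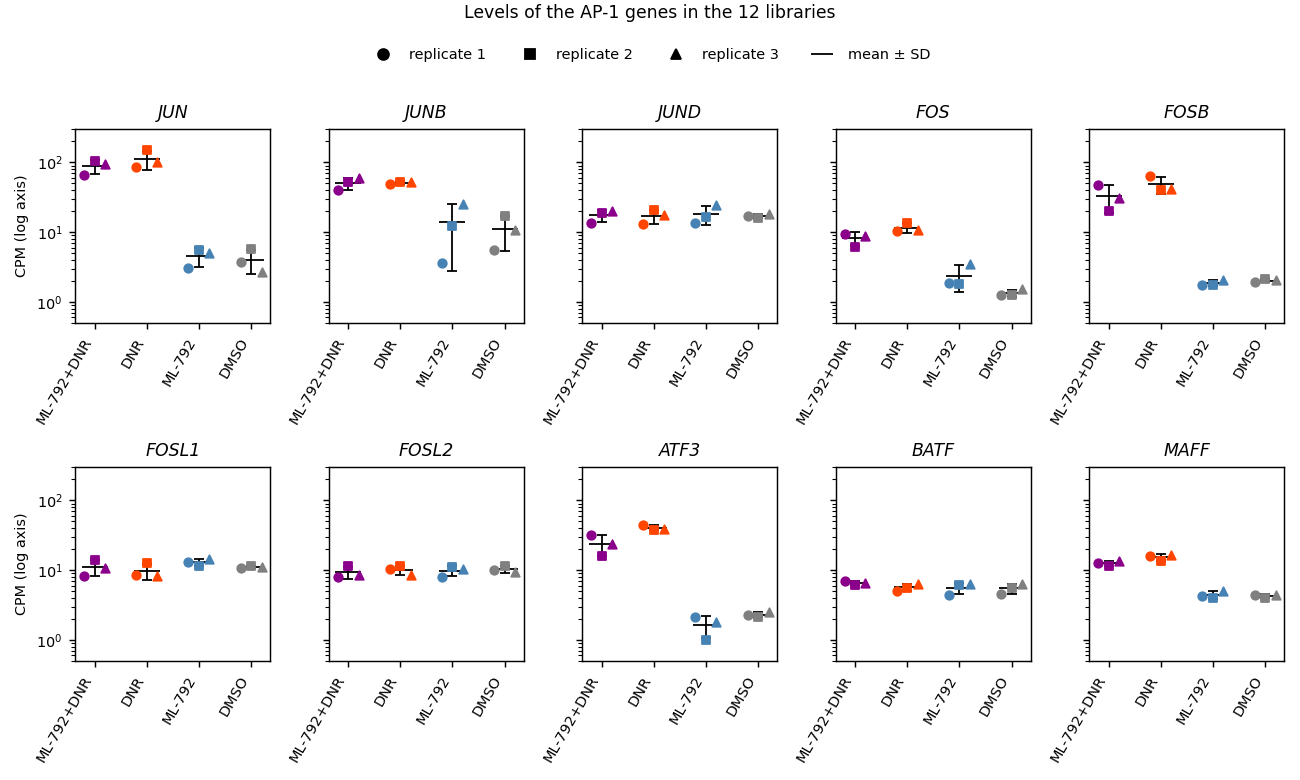
Level of each AP-1 gene in CPM (log axis) in the 12 libraries, by group, with a symbol for each replicate and bars for mean ± SD. In JUN, JUNB, FOS, FOSB, ATF3 and MAFF every library with DNR lay above every library without it, and in JUND, FOSL1, FOSL2 and BATF the DNR and DMSO libraries overlapped. How many of all genes were separated in this way was not counted.

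JUN encodes c-Jun, the strongest activator of the Jun group, and lies on chromosome 1 (59242517 to 59249720, minus strand, GRCh37). In replicates 1, 2 and 3 it stood at 85.4, 151 and 102 CPM in DNR, against 3.69, 5.75 and 2.73 CPM in DMSO. The ranges were far apart. Its log2 fold change was the largest of the 10 genes, 4.81 ± 0.288 (SE; adjusted p = 3.95e-07), and within replicates DNR was 23.2-, 26.3- and 37.4-fold over DMSO.

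JUNB (chromosome 19, 12902300 to 12904129, plus strand), whose product restrains c-Jun at many promoters, was at 48.4, 52.4 and 52.9 CPM in the DNR replicates and at 5.55, 16.9 and 10.9 CPM in the DMSO replicates. The DNR libraries were close to each other, whereas the DMSO libraries spread widely and still lay below all of them. The log2 fold change was 2.22 ± 0.481 (adjusted p = 0.0047), with the widest error of the 6 genes that rose. The fold within replicates followed the DMSO level, at 8.73, 3.10 and 4.86. Leaving out single libraries gave log2 values of 1.87 to 2.64 and kept the call. An exon of HOOK2 overlaps JUNB on the opposite strand. The study's methods name a stranded library kit, but whether reads were counted by strand is stated nowhere in what was read for this work. The overlap could therefore affect the JUNB count. HOOK2 stood at 5.42 ± 0.252 CPM in DNR and 5.43 ± 0.631 CPM in DMSO (SD, n = 3 each).

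JUND (chromosome 19, 18390504 to 18392432, minus strand), the Jun gene that most resting cells express, did not follow. It was at 13.1, 20.6 and 17.4 CPM in DNR, against 17.2, 16.2 and 18.0 CPM in DMSO. The DMSO values lay within the DNR range. The log2 fold change was -0.01, with a 95% interval from -0.47 to 0.45 (adjusted p = 0.985), which leaves out a 2-fold change either way.

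FOS (chromosome 14, 75745529 to 75748933, plus strand), the founding member of the Fos group and a partner of Jun proteins, was at 10.3, 13.6 and 10.8 CPM in DNR and at 1.25, 1.27 and 1.53 CPM in DMSO. The values rest on 1146 reads over the 3 DNR libraries and 159 over the 3 DMSO libraries. The groups did not overlap, and the log2 fold change was 3.10 ± 0.261 (adjusted p = 3.43e-06).

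FOSB (chromosome 19, 45971253 to 45978437, plus strand), a Fos gene with a strong activation domain in its full-length product, was at 63.7, 40.1 and 41.0 CPM in DNR, against 1.92, 2.10 and 2.04 CPM in DMSO. The DMSO libraries agreed closely and replicate 1 was the highest of the DNR libraries. The log2 fold change was 4.58 ± 0.284 (adjusted p = 4e-07). On replicates 2 and 3 only, a choice made after seeing the mitochondrial share of replicate 1, it was 4.28.

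FOSL1 and FOSL2 encode Fra-1 and Fra-2, Fos proteins without the activation domain of c-Fos. FOSL1 (chromosome 11, 65659520 to 65668044, minus strand) was at 8.50, 12.7 and 8.23 CPM in DNR and 10.7, 11.4 and 11.0 CPM in DMSO, and its log2 fold change of -0.17 had an interval from -0.59 to 0.25 (adjusted p = 0.558). FOSL2 (chromosome 2, 28615315 to 28640184, plus strand) was at 10.3, 11.3 and 8.48 CPM in DNR and 10.1, 11.7 and 9.32 CPM in DMSO, with a log2 fold change of -0.05 and an interval from -0.42 to 0.32 (adjusted p = 0.864). For both genes the DNR and DMSO libraries overlapped, so that within the Fos group FOS and FOSB rose while neither FOSL1 nor FOSL2 passed the test.

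ATF3 (chromosome 1, 212738676 to 212794119, plus strand) encodes a stress-induced factor that as a homodimer represses transcription. It was at 44.3, 38.0 and 39.2 CPM in DNR, against 2.27, 2.13 and 2.55 CPM in DMSO. Both groups were tight and far apart. The log2 fold change was 4.12 ± 0.245, with the smallest adjusted p of the 10 genes, 3.16e-07, and it was 4.03 on replicates 2 and 3 only.

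BATF (chromosome 14, 75988798 to 76013336, plus strand), a lymphoid and myeloid partner of Jun proteins that lacks an activation domain, was at 5.10, 5.58 and 6.30 CPM in DNR and 4.60, 5.51 and 6.37 CPM in DMSO. The groups overlapped, and the log2 fold change of 0.04 had an interval from -0.33 to 0.42 (adjusted p = 0.877). MAFF (chromosome 22, 38596774 to 38612514, plus strand) was at 15.8, 13.5 and 16.5 CPM in DNR, against 4.38, 4.02 and 4.43 CPM in DMSO. Its rise was the smallest of the 6 and the most even, 3.62-, 3.35- and 3.72-fold within replicates, with a log2 fold change of 1.83 ± 0.133 (adjusted p = 9.94e-07). PLA2G6 overlaps an exon of MAFF on the opposite strand and was at 6.34 ± 1.75 CPM in DNR and 7.06 ± 1.53 CPM in DMSO (SD, n = 3 each).

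**Figure D2:**
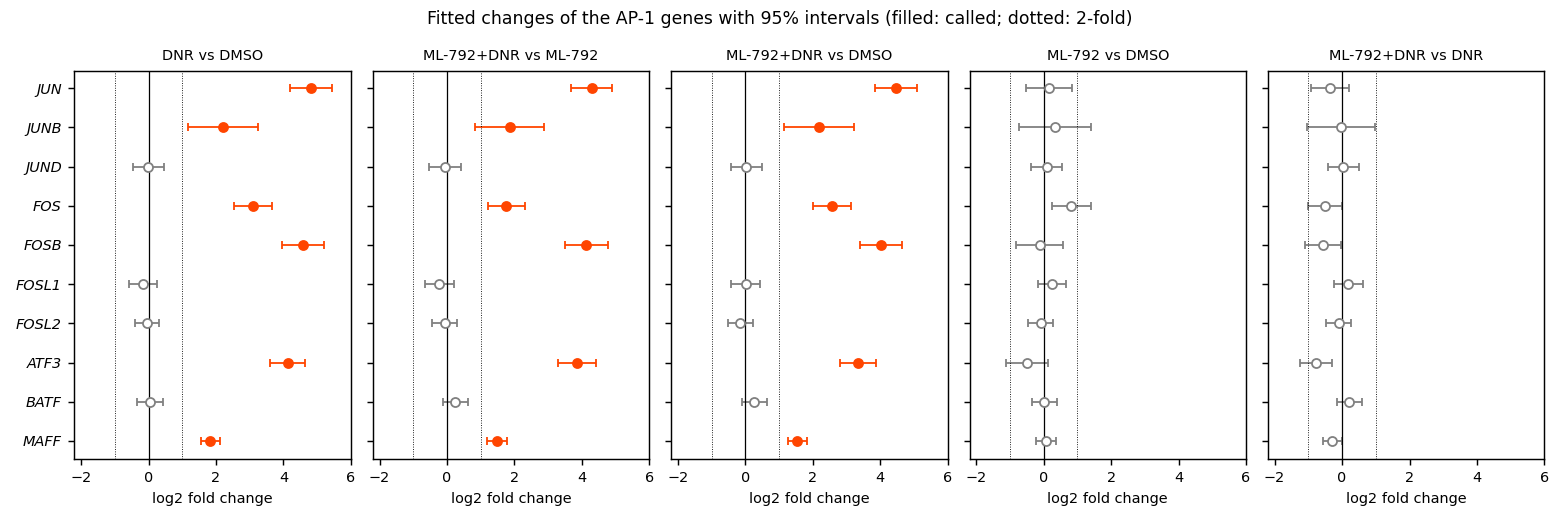
Log2 fold change of each AP-1 gene with its 95% interval in 5 comparisons, filled where the gene was called and open where it was not, with dotted lines at a 2-fold change. The same 6 genes are filled in the 3 comparisons of a group with DNR against a group without it, and none is filled for ML-792 against DMSO or for both drugs against DNR.

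ML-792 alone left no AP-1 gene past the threshold. Of all genes tested, 0.073% were called higher and 0.0073% lower by edgeR, 11 genes in all, and DESeq2 called none of the AP-1 genes either. At an unadjusted p below 0.05 there was 1 AP-1 gene, FOS, and 697 genes in all. FOS was at 1.86, 1.79 and 3.53 CPM in ML-792, against 1.25, 1.27 and 1.53 CPM in DMSO, so that each ML-792 library was above each DMSO library. Its log2 fold change was 0.82 ± 0.275 (adjusted p = 0.551), and without ML-792 replicate 3 it was 0.43. FOSL1 was likewise above every DMSO library in every ML-792 library, at a log2 fold change of only 0.23. How many of all genes were separated like this, in either direction, was not counted.

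ATF3 ran the other way, at 2.10, 1.01 and 1.79 CPM in ML-792 and 2.27, 2.13 and 2.55 CPM in DMSO. All ML-792 libraries were below all DMSO libraries, a separation that was likewise not counted over all genes. The log2 fold change of -0.49 did not pass (95% interval -1.11 to 0.12, adjusted p = 1). JUNB was spread widely, at 3.65, 12.3 and 25.7 CPM in ML-792, against 5.55, 16.9 and 10.9 CPM in DMSO. In ML-792 replicate 3, where JUNB was highest, the granule protease gene PRTN3 also reached its highest level, 777 CPM, and the part of that library in the JUNB value was not tested beyond leaving it out. Without it the log2 fold change of JUNB was -0.48, against 0.33 with it. The other 7 genes had log2 fold changes between -0.12 and 0.23.

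With both drugs, the same 6 genes stood above DMSO and none stood below. The shares of all genes called in ML-792+DNR vs DMSO were 3.93% higher and 2.56% lower. In replicates 1, 2 and 3 of ML-792+DNR, JUN was at 65.2, 103 and 95.9 CPM, FOSB at 47.7, 20.0 and 30.8 CPM and ATF3 at 31.7, 15.7 and 23.9 CPM. These values were all above the DMSO values given before, with log2 fold changes of 4.46 ± 0.288 for JUN, 4.02 ± 0.285 for FOSB and 3.35 ± 0.247 for ATF3. JUNB, at 39.7, 51.8 and 59.1 CPM, had a log2 fold change of 2.19 ± 0.481. FOS, at 9.45, 6.06 and 8.88 CPM, had one of 2.58 ± 0.262, and MAFF, at 12.6, 11.4 and 13.6 CPM, one of 1.54 ± 0.134. The adjusted p-values ranged over the 6 genes from 1.5e-06 for JUN to 0.00451 for JUNB (edgeR).

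Set against ML-792 alone, the group that shares the inhibitor, ML-792+DNR was again higher for these 6 genes and lower for none, where 3.68% of all genes were called higher and 2.66% lower. The log2 fold change was 4.29 ± 0.287 for JUN, 4.14 ± 0.292 for FOSB and 3.85 ± 0.262 for ATF3. JUNB followed with 1.86 ± 0.479 (adjusted p = 0.011), FOS with 1.76 ± 0.251 (adjusted p = 0.000256) and MAFF with 1.48 ± 0.134. The level of JUNB in ML-792 replicate 3 weighed on its value, since the log2 fold change was 2.65 without that library and 1.40 without ML-792 replicate 1. JUND, FOSL1, FOSL2 and BATF were not called in either comparison, with log2 fold changes from -0.22 to 0.26.

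Whether inhibition of SUMO attachment altered the level reached with DNR is read from ML-792+DNR vs DNR. None of the AP-1 genes was called, by edgeR or by DESeq2, and of all genes 0.0949% were called higher and 0.102% lower. At an unadjusted p below 0.05 there were 4 AP-1 genes, ATF3, FOSB, FOS and MAFF, all lower with both drugs, and 1768 genes in all. The median log2 fold change of the 10 genes was -0.20, against 0.00 over all genes.

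ATF3 had the largest difference. It was at 31.7, 15.7 and 23.9 CPM in ML-792+DNR, against 44.3, 38.0 and 39.2 CPM in DNR. All libraries with both drugs lay below all DNR libraries, at 0.716, 0.413 and 0.608 of the DNR level in replicates 1, 2 and 3. How many of all genes were separated like this was not counted here either. The log2 fold change of ATF3 was -0.77 ± 0.219 (unadjusted p = 0.00364, adjusted p = 0.145). With the replicate number as a block it was -0.82 ± 0.146 (adjusted p = 0.0119), which passed on p but was smaller than 2-fold, so that the gene was still not called. The adjusted p was also below 0.05 with DESeq2, at 0.0283, and without the count filter, at 0.00261, and over all 20 alternatives it ranged from 0.00261 to 0.317.

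FOS was at 9.45, 6.06 and 8.88 CPM in ML-792+DNR and 10.3, 13.6 and 10.8 CPM in DNR, again without overlap, with a log2 fold change of -0.52 ± 0.235 (adjusted p = 0.376). FOSB was at 47.7, 20.0 and 30.8 CPM in ML-792+DNR and 63.7, 40.1 and 41.0 CPM in DNR. Its groups overlapped through replicate 1, yet it was lower with both drugs in each replicate, at 0.749, 0.498 and 0.751 of the DNR level (log2 -0.56 ± 0.245, adjusted p = 0.354). MAFF was at 0.792, 0.842 and 0.825 of the DNR level, with a log2 fold change of -0.29 ± 0.129 (adjusted p = 0.362). With the replicate block in edgeR these differences were -0.54 ± 0.208 for FOS, -0.59 ± 0.177 for FOSB and -0.29 ± 0.083 for MAFF. The adjusted p-values were then lower, at 0.170, 0.0826 and 0.0756, and none passed. JUN had a log2 fold change of -0.36 with an interval from -0.91 to 0.20 (adjusted p = 0.604). With the replicate block it was -0.34 with a narrower interval, from -0.64 to -0.03 (adjusted p = 0.191), and was still not called. JUNB was at -0.03 with an interval from -1.04 to 0.98, so that a change close to 2-fold either way could not be told from none. With the replicate block JUNB was at -0.08 with an interval from -0.87 to 0.71 (adjusted p = 0.919), which leaves out a 2-fold change either way.

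**Figure D3:**
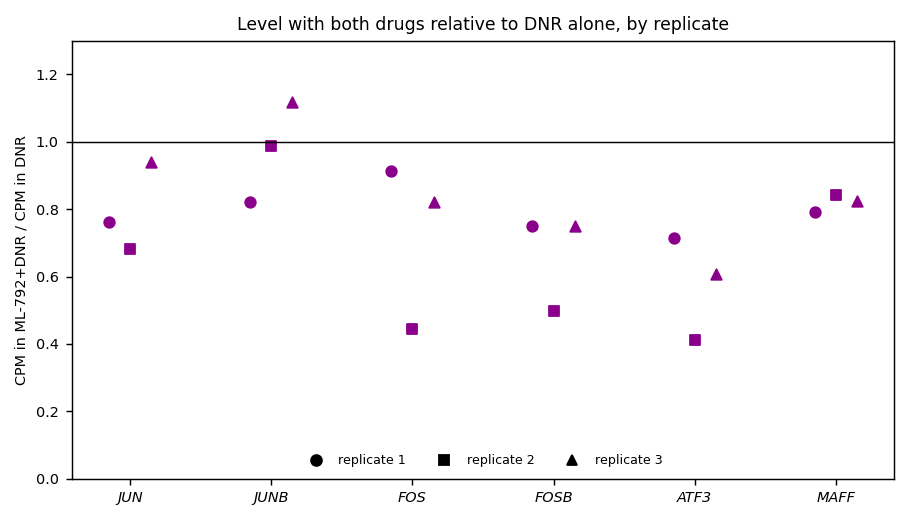
CPM in ML-792+DNR divided by CPM in DNR for the 6 AP-1 genes that rose with DNR, with a symbol for each replicate and a line at a ratio of 1. ATF3, FOSB, FOS, MAFF and JUN lie below 1 in all 3 replicates and JUNB lies on both sides, from 0.820 to 1.12, while replicate 2 gives the lowest ratio for JUN, FOS, FOSB and ATF3.

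The rise with DNR was compared in CPM with and without the inhibitor, as the difference between ML-792+DNR and ML-792 over that between DNR and DMSO. This ratio was 56.0% for FOS, 57.9% for ATF3, 67.0% for FOSB, 73.0% for MAFF, 76.8% for JUN and 90.5% for JUNB. Between replicates the ratio for ATF3 was 70.4%, 41.0% and 60.2%, and that for FOS was 83.4%, 34.5% and 57.6%. For FOSB it was 74.4%, 47.9% and 73.8%, and for MAFF 71.7%, 77.8% and 70.6%. For JUN it was 76.1%, 67.2% and 91.6%, and for JUNB 84.1%, 111% and 79.5%. The order of the genes thus changed between replicates. On the log2 scale the difference between both fold changes was tested as an interaction. No AP-1 gene was called by edgeR or DESeq2, and of all genes 0% were called higher and 0% lower by edgeR, with 493 genes at an unadjusted p below 0.05 and 6 genes called by DESeq2. FOS had the largest interaction, -1.34 ± 0.362 (unadjusted p = 0.00252, adjusted p = 0.91), and was the only AP-1 gene with an unadjusted p below 0.05 in this fit. With the replicate block the adjusted p of FOS was 0.323. MAFF was then at -0.35 with an interval from -0.62 to -0.07 (adjusted p = 0.527). The interaction of FOS combines a higher FOS level in ML-792 than in DMSO with a lower one in ML-792+DNR than in DNR, and it was -0.95 without ML-792 replicate 3. ATF3, whose level was lower with the inhibitor both with and without DNR, had an interaction of -0.28 with an interval from -1.05 to 0.49.

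To compare levels between the AP-1 genes, CPM was divided by the length of the canonical transcript in kilobases. On this scale the make-up of the family differed between groups. In DNR the summed level per kb was led by JUN (26.2 ± 5.63%), JUNB (21.5 ± 1.55%) and ATF3 (16.1 ± 2.45%), with FOSB at 9.93 ± 3.35% and JUND at 6.73 ± 1.04% (SD, n = 3). In DMSO it was led by JUND (26.1 ± 3.75%), FOSL1 (19.0 ± 1.75%), BATF (17.5 ± 1.97%) and JUNB (17.1 ± 7.19%), while JUN held 3.60 ± 1.16% and FOSB 1.56 ± 0.115%. The level per kb of JUND itself was 8.84 ± 1.94 CPM per kb in DNR and 8.88 ± 0.476 CPM per kb in DMSO. JUN, FOS, FOSB and ATF3 had shares in every DNR library above those in every DMSO library, and JUND, FOSL1, FOSL2 and BATF shares below them.

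With both drugs JUNB and JUN held shares that overlapped each other, 25.1 ± 3.22% and 24.8 ± 4.88%, and ATF3 held 11.4 ± 4.37%. In ML-792 the same 4 genes led as in DMSO, JUND with 24.9 ± 0.876%, FOSL1 with 21.1 ± 5.48%, JUNB with 18.0 ± 10.3% and BATF with 16.5 ± 2.64%, and JUNB and BATF overlapped in both groups. By subfamily, the Jun genes held 58.2 ± 8.91% of the summed level per kb in ML-792+DNR, 54.5 ± 5.72% in DNR, 46.6 ± 10.0% in ML-792 and 46.8 ± 4.05% in DMSO, ranges that overlap between DNR and DMSO. The Fos genes held 19.7 ± 2.95% in DNR and 26.9 ± 2.38% in DMSO, ranges that did not overlap. A lower share is not a lower level here. The summed level of the 10 genes was 131 ± 11.2 CPM per kb in DNR and 34.4 ± 3.98 CPM per kb in DMSO. In DNR and DMSO, FOSB was at 12.8 and 0.535 CPM per kb, FOS at 5.51 and 0.641, FOSL1 at 5.77 and 6.49, and FOSL2 at 1.49 and 1.54. The shares depend on the length used. With the union of all annotated exons in place of the canonical transcript, ATF3 held 9.69% and MAFF 2.61% in DNR, against 16.1% and 4.98%. The Jun genes then held 58.7% to 68.2% in DNR and 47.8% to 55.2% in DMSO, so that their ranges no longer overlapped.

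**Figure D4:**
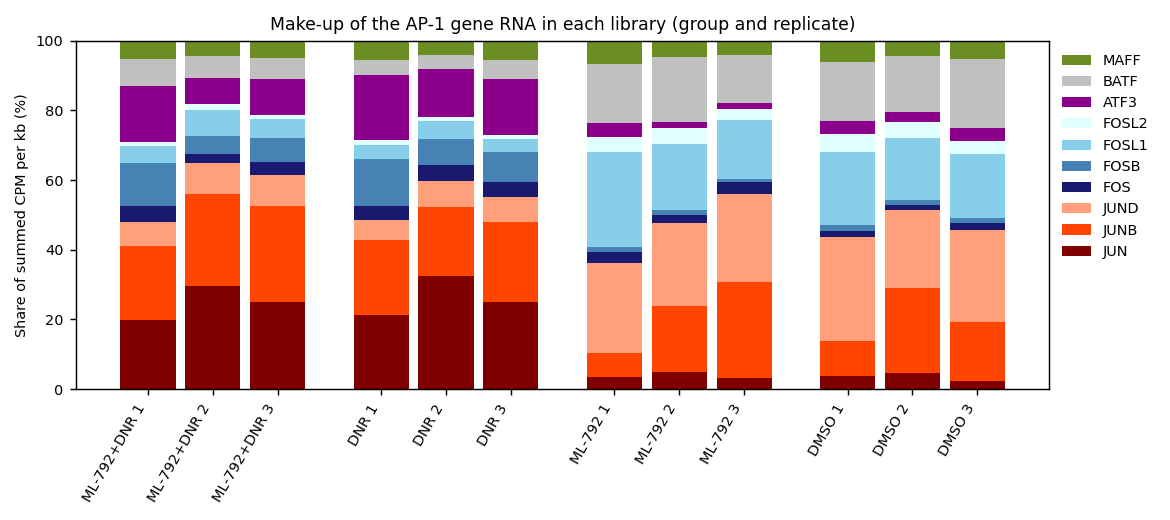
Share of each AP-1 gene in the summed level per kb (%) in each of the 12 libraries, labelled by group and replicate. JUN, FOSB and ATF3 take more of the bar in the libraries with DNR, and JUND, FOSL1, FOSL2 and BATF more of it in the libraries without DNR.

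Genes outside the family with the most similar pattern were sought for the 3 AP-1 genes with the widest range of group means, by Pearson r of log2 CPM over the 12 libraries. The values describe libraries that share the DNR contrast. JUN was closest to ZC3H12A (r = 0.989), an RNase gene that limits inflammatory messages, MB21D1 (r = 0.988), which encodes the DNA sensor cGAS, and IER5 (r = 0.987), an immediate early gene. ATF3 was closest to RND1 (r = 0.993), PIP4K2C (r = 0.993) and SAT1 (r = 0.992), a gene of polyamine breakdown. FOSB was closest to FAM53C (r = 0.996), HEXIM1 (r = 0.993), an inhibitor of the elongation kinase P-TEFb, and MXD1 (r = 0.992), a partner of MAX. IER5 was at 115 ± 6.91 CPM in DNR and 18.5 ± 0.474 CPM in DMSO, and HEXIM1 at 422 ± 86.7 CPM in DNR and 87.0 ± 1.15 CPM in DMSO (SD, n = 3 each).

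Other leucine zipper genes of the AP-1 superfamily and partners of small MAF proteins made a list of 21 genes, of which 17 were tested. With DNR 1 was higher and 1 lower, where 4.07% and 2.91% of all genes were, and the median log2 fold change was 0.14, against 0.01 over all genes. DDIT3, which encodes the stress factor CHOP, was at 50.4 ± 3.06 CPM in DNR and 22.4 ± 2.50 CPM in DMSO (SD, n = 3 each; log2 1.17 ± 0.122, adjusted p = 1.92e-05). NFE2, an erythroid and megakaryocytic partner of small MAF proteins, was at 0.457 ± 0.107 CPM in DNR and 4.69 ± 1.88 CPM in DMSO (SD, n = 3 each; log2 -3.36 ± 0.383, adjusted p = 2.43e-05). NFE2 was lower also in ML-792+DNR than in DMSO (log2 -2.43 ± 0.336) and than in ML-792 (log2 -3.73 ± 0.332). NRL, a large MAF gene, was higher in both comparisons (log2 1.20 ± 0.281 and 1.31 ± 0.287), a call that was lost without ML-792+DNR replicate 1 (log2 0.89 and 0.99). Its levels were low, at 1.63 ± 0.550 CPM in ML-792+DNR, 0.691 ± 0.197 CPM in DMSO and 0.652 ± 0.0828 CPM in ML-792 (SD, n = 3 each). None of the 17 was called for ML-792 against DMSO, for both drugs against DNR or in the interaction. DDIT3 was at 29.1 ± 4.16 CPM in ML-792+DNR, against 50.4 ± 3.06 CPM in DNR, which passed on p (adjusted p = 0.0127) but was smaller than 2-fold (log2 -0.79 ± 0.122).

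A further list held kinases and factors known to drive AP-1 genes, MAP kinases, SRF with its cofactors, MEF2, ELK and CREB genes. Of 29 tested, none was higher with DNR and 1 was lower, close to the 2.91% of all genes called lower. It was MKL1, an actin-regulated cofactor of SRF (23.1 ± 4.58 CPM in DNR, 56.8 ± 2.17 CPM in DMSO, SD, n = 3 each; log2 -1.30 ± 0.132). It was lower with both drugs than with DMSO too (log2 -1.26 ± 0.132), together with MEF2D (log2 -1.25 ± 0.107), where 2.56% of all genes were lower, and no gene of the list was called in the other comparisons. None of 15 genes for cofactors and turnover of AP-1 proteins was called in any of the 6 comparisons by edgeR. The most abundant of them were NACA, a coactivator of c-Jun, at 1145 ± 42.3 CPM in DNR and 1073 ± 47.8 CPM in DMSO, and DDB1, a subunit of a ubiquitin ligase, at 481 ± 18.7 CPM in DNR and 455 ± 31.3 CPM in DMSO (SD, n = 3 each).

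Of 24 genes known from textbooks as AP-1 targets, 15 were tested. With DNR 3 were higher and none lower, where 4.07% and 2.91% of all genes were, and the median log2 fold change was 0.17, against 0.01 over all genes. CXCL8, the neutrophil chemokine interleukin-8, was at 146 ± 41.0 CPM in DNR and 12.1 ± 2.32 CPM in DMSO (log2 3.59 ± 0.258), TNF at 16.2 ± 7.97 CPM in DNR and 3.34 ± 0.434 CPM in DMSO (log2 2.27 ± 0.368), and the growth factor gene HBEGF at 12.5 ± 3.06 CPM in DNR and 3.02 ± 0.363 CPM in DMSO (log2 2.05 ± 0.174), with SD for CPM, SE for log2 and n = 3. In ML-792+DNR vs DMSO, 2 were higher, CXCL8 (log2 2.28 ± 0.260) and HBEGF (log2 2.30 ± 0.174), and in ML-792+DNR vs ML-792 all 3 were, against 3.93% and 3.68% of all genes. The last call of TNF (log2 1.09 ± 0.381, adjusted p = 0.0419) was lost under 13 of 20 alternatives, the replicate block among them (log2 0.99, adjusted p = 0.0322, just under 2-fold). CXCL8 was the only one called in ML-792+DNR vs DNR, where 0.102% of all genes were lower, at 58.6 ± 20.2 CPM in ML-792+DNR and 146 ± 41.0 CPM in DNR (SD, n = 3 each; log2 -1.32 ± 0.250, adjusted p = 0.0335), while HBEGF was at 14.9 ± 1.44 CPM in ML-792+DNR and 12.5 ± 3.06 CPM in DNR. The call of CXCL8 was lost under 8 of 20 alternatives, among them without ML-792+DNR replicate 1 (log2 -1.05) and without DNR replicate 3 (log2 -1.20), and held with the replicate block (adjusted p = 0.00593). No target was called for ML-792 vs DMSO or the interaction.

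Of 8 promyelocyte markers, 1 was lower with DNR, against 2.91% of all genes. CEBPA, a myeloid master regulator, was at 60.3 ± 9.95 CPM in DNR and 144 ± 12.9 CPM in DMSO (SD, n = 3 each; log2 -1.26 ± 0.152, adjusted p = 5.9e-05). Of 11 markers of other cell types 3 had enough reads to be tested, PECAM1, KRT8 and KLF1, each below 3.1 CPM in every library, and none was called in any comparison. In cultures sequenced in bulk, a change in the share of cells that express a gene and a change in RNA per cell cannot be told apart.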

How the data were processed

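Polyadenylated RNA was sequenced from 12 HL-60 libraries. The deposited raw counts were made by the authors, who aligned reads to hg19 with TopHat2 2.1.1 and Bowtie2 2.3.5.1 and counted them per gene with HTSeq 0.11.1. The strand setting and annotation release of the counting are not given in the sources used here. Tables of normalized values and of the authors' own comparisons (DESeq2 fold changes and p-values) were not used, and 5 counter lines were left out.

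Counts were fitted with edgeR 4.0.16 (R 4.3.3) by quasi-likelihood over all 12 libraries with a group term and TMM factors, after filterByExpr (minimum count 10, minimum total 15), with Benjamini-Hochberg adjustment over 13696 genes. A gene was called at adjusted p below 0.05 and at least 2-fold. The script was tested on simulated data. No exact permutation test of 3 against 3 was used, since it cannot go below p = 0.1.

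Depth was 28647951 to 46451654 reads in genes per library. Errors and p-values cover the spread among these replicate experiments. Same-numbered libraries were checked as pairs by correlating deviations from group means across genes. The lowest r was 0.0852 for DNR vs DMSO and 0.124 to 0.353 for the other comparisons of 2 groups. Between DNR and DMSO the same-numbered libraries had r of 0.0852, 0.249 and 0.336, and differently numbered ones at most 0.00401. Over all groups differently numbered libraries reached at most 0.0913. The numbers therefore pair in each comparison, most weakly in DNR vs DMSO. The main values are from the fit without a block, although the numbers pair. The blocked fit is given where it bears on a call. It is also given for some genes in ML-792+DNR vs DNR and in the interaction.

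Alternatives were DESeq2 1.42.0, its size factors in edgeR, limma 3.58.1 voom, scaling by library size only, a fit without the count filter, a replicate block, a fit to just the groups compared, no fold minimum and leaving out each library. Replicates 2 and 3 only was added after the data were seen. Members and lists were chosen with earlier results of these data known. All 10 members were described, and of each list up to 4 called genes with the largest change were named, or the most abundant ones where none was called. Similar genes were sought among those whose highest group mean reached 5 CPM. Positions are from GENCODE on GRCh37 and promoters from RefSeq on GRCh38.p14.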

Additional observations from a re-analysis of the deposited data

How the results depend on the processing

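Under the 21 alternatives, 20 of them planned, the 18 calls of AP-1 genes kept their direction and their side of the threshold in all 360 values, and the counts of AP-1 genes called did not move. With the replicate block no call of an AP-1 gene changed in any comparison, and of the other genes named only TNF in ML-792+DNR vs ML-792 lost its call (log2 0.99). ATF3 in ML-792+DNR vs DNR then passed on p at a log2 of -0.82 (adjusted p = 0.0119) without reaching 2-fold. All 58 changes of sign were in genes not called, in 21 of 42 such results, whose main log2 values were at most 0.36 in size. The cause was not tested.

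On replicates 2 and 3 only, the sign turned for JUND (0.14) and BATF (-0.012) in DNR vs DMSO, FOSL2 (0.022) in ML-792 vs DMSO, JUNB (0.077) and FOSL2 (0.014) in ML-792+DNR vs DNR, and FOSL1 (0.046) in the interaction. With library size only it turned for BATF in ML-792 vs DMSO (-0.012), JUND (-0.0085) and FOSL1 (-0.032) in ML-792+DNR vs DMSO and FOSL2 in the interaction (0.0042). FOSL2 in the interaction was 0.0087 without the count filter and 0.0042 with limma voom, JUND in the interaction 0.015 with limma voom, and FOSL1 in ML-792+DNR vs DMSO -0.013 with the replicate block. Leaving out single libraries in DNR vs DMSO gave -0.17 to 0.15 for JUND, -0.15 to 0.062 for FOSL2 and -0.088 to 0.15 for BATF. In ML-792 vs DMSO it gave -0.054 to 0.48 for JUN, -0.48 to 0.79 for JUNB, -0.19 to 0.26 for JUND, -0.18 to 0.039 for FOSL2, -0.10 to 0.17 for BATF and -0.042 to 0.14 for MAFF. In ML-792+DNR vs DMSO it gave -0.089 to 0.18 for JUND and -0.21 to 0.17 for FOSL1. In ML-792+DNR vs DNR it gave -0.16 to 0.11 for JUNB, -0.12 to 0.20 for JUND and -0.033 to 0.41 for FOSL1. In ML-792+DNR vs ML-792 it gave -0.23 to 0.21 for JUND and -0.23 to 0.031 for FOSL2. In the interaction it gave -0.82 to 0.45 for JUNB, -0.22 to 0.23 for JUND, -0.27 to 0.17 for FOSL1 and -0.18 to 0.081 for FOSL2.

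The background counts over all genes moved more. In ML-792 vs DMSO 11 genes were called, against 21 with DESeq2, 27 without the count filter, 25 with the replicate block, 33 without a fold minimum, 4 on replicates 2 and 3 only and 5 without DMSO replicate 1. In ML-792+DNR vs DNR 27 were called, against 44 without the count filter, 52 with the replicate block, 8 on the groups of the comparison only, 102 without a fold minimum, 2 on replicates 2 and 3 only and 1 without DNR replicate 3. In the interaction 0 were called, against 6 with DESeq2, 11 without the count filter and 1 with the replicate block. Without a fold minimum 4108 genes were called in DNR vs DMSO, 4843 in ML-792+DNR vs DMSO and 4626 in ML-792+DNR vs ML-792, against 956, 888 and 868, and on replicates 2 and 3 only 568, 496 and 446. With 3 libraries per group, differences under 2-fold such as those of FOS, FOSB and MAFF between both drugs and DNR alone were not resolved after adjustment.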
